A study of Homo sapiens with 54 samples.

Results

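Parental MDA-MB-468 cells were exposed overnight to 3 µM olaparib alone and compared with untreated parental cells. The comparison comprised 6 of the 54 libraries of the series, 3 labelled olaparib and 3 labelled control, taken by their titles. MDA-MB-468 is an established triple negative breast cancer line that lacks clinically relevant estrogen receptor, progesterone receptor and HER2 and is labelled BRCA1 wild type. Olaparib is an inhibitor of the poly(ADP-ribose) polymerases PARP-1 and PARP-2. The 18 conditions of the series, with 3 libraries each, also held MDA-MB-468 treated with 1 or 2.5 µM cisplatin (CDDP), a DNA crosslinking drug, with or without 3 µM olaparib. The BRCA1 mutant line SUM1315 was treated with 8 µM olaparib, 2 or 4 µM CDDP or both, and an olaparib resistant (OlaR) derivative of each line was kept in 15 or 25 µM olaparib. All cells grew in the same serum-containing medium. Neither a vehicle for the untreated cells nor separate cultures for the 3 libraries of a condition were stated in the sources used here, so the p-values measure the spread between these libraries, which may be technical.

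PARP-1 and PARP-2 bind DNA strand breaks and build chains of ADP-ribose that recruit repair factors, and PARG removes these chains. Olaparib occupies the catalytic site and holds the enzymes on damaged DNA, where replication forks meet them. Cells with functional BRCA1, as this line is labelled, can repair the resulting breaks by homologous recombination. Bulk RNA-seq reads the transcripts of such cells and not the activity of the enzymes, and in bulk samples fewer cells of a type and less RNA per cell cannot be told apart.

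The libraries were read from the 3′ end of polyadenylated RNA and held 7210988 to 7568367 reads (untreated) and 6867889 to 9268162 reads (olaparib). All values given are the deposited adjusted read counts, which the authors had brought to a common library size. Across 10234 genes, libraries of the same condition correlated at r = 0.983 to 0.989 and libraries of different conditions at 0.9708 to 0.9762. All 13 markers of basal-like epithelium were tested, with summed values of 26040 to 27010 in untreated and 27990 to 29460 in olaparib libraries. Of the hormone receptor and HER2 markers, PGR was below the level tested, and ESR1, FOXA1 and GATA3 were detected. This list summed to 1661 to 1744 in untreated and 1358 to 1382 in olaparib libraries, without overlap, and 3 of its 4 tested members fell, with a median of -0.37. Markers of mesenchymal lines, leukocytes and endothelium or fibroblasts summed to at most 161.2, 86.61 and 68.15 in any of the 6 libraries, and the leukocyte markers PTPRC, CD3E, MS4A1, LYZ, CSF1R and ITGAM were below the level tested. The one leukocyte marker above it, CD14, measured 59.9, 86.6 and 52.97 in untreated and 39.1, 21.0 and 23.8 in olaparib libraries.

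The untreated libraries stood apart from every treated condition, and this bears on each result below. Among the 18 parental MDA-MB-468 libraries, the 3 untreated libraries lay wholly below or wholly above the other 15 for 701 and 659 of the 13012 genes tested, 10.5% in all. The same share was 3% for the olaparib libraries, 0.976% for 1 µM CDDP, 2.61% for 2.5 µM CDDP, 0.231% for olaparib with 1 µM CDDP and 5.14% for olaparib with 2.5 µM CDDP. Of the 226 genes changed at least 2-fold by olaparib, 87 had untreated levels outside the range of all 15 treated libraries and 22 had olaparib levels outside the range of the other 15. The untreated and olaparib libraries also defined these 226 genes, which favors levels outside the range in both groups. These 2 counts are therefore no separate evidence beside the shares over all genes. The part of drug, handling or library preparation in this separation was not tested.

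Olaparib changed many genes by small amounts. With a false discovery rate (FDR) of 5% in limma's moderated test over all 13012 genes, 1617 genes rose (12.4%) and 1185 fell (9.11%), of which 2096 changed by less than 1.5-fold. Differentially expressed genes (DEGs), defined by the same FDR and a change of at least 2-fold, numbered 85 higher (0.653%) and 141 lower (1.08%). The 3 olaparib and 3 untreated libraries did not overlap for 78 of the 85 and 130 of the 141, against 33.8% of all genes tested. These same 6 libraries defined the DEGs, so the higher share without overlap follows from the selection and is no separate evidence. The median change over all genes was 0.01 on the log2 scale. Connective tissue growth factor CTGF and the glutathione-degrading enzyme CHAC1 were among the largest falls, and small nucleolar RNAs among the largest rises.

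**Figure D1:**
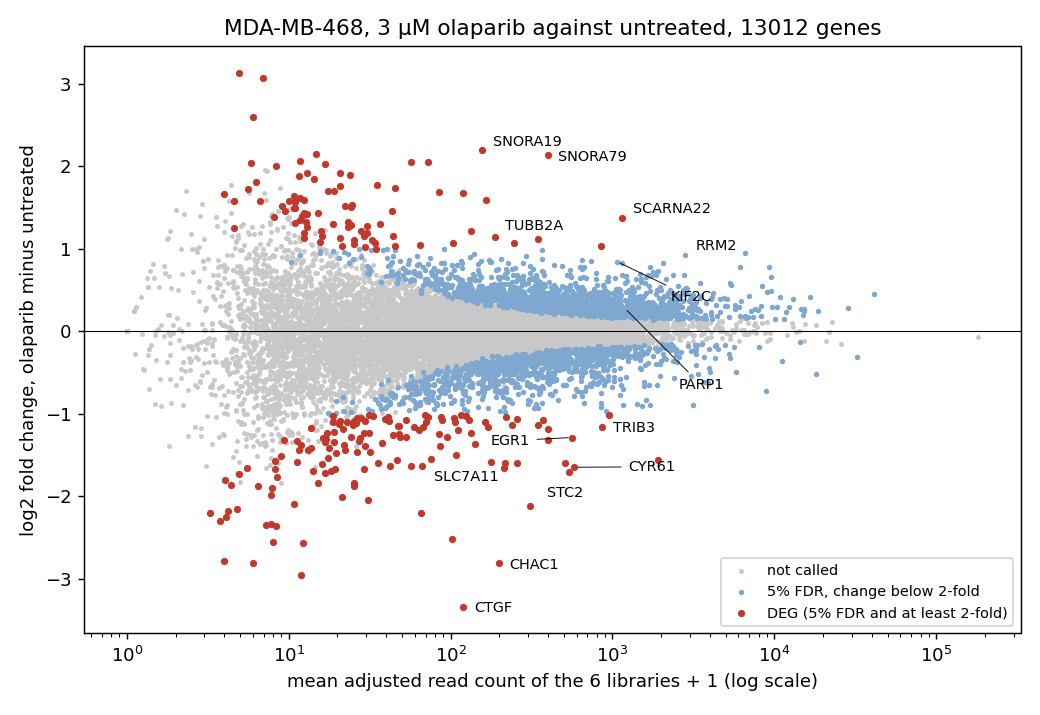
Log2 fold change of olaparib against untreated cells (y axis) against the mean adjusted read count of the 6 libraries plus 1 (x axis, log scale) for 13012 genes. Red points are the 85 higher and 141 lower DEGs, blue points other genes at 5% FDR; labelled DEGs include SCARNA22 above and CYR61, STC2 and TRIB3 below the zero line.

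Genes of the integrated stress response fell together. In this response a phosphorylated initiation factor favors translation of the transcription factor ATF4, which raises genes for amino acid import, amino acid synthesis and stress signaling. Of 30 listed genes 29 were tested, 26 fell, none rose and 3 did not pass. The median change was -0.70 against 0.01 over all genes, of which 9.11% fell and 12.4% rose. The 7 DEGs of the list were all lower. ATF4 itself, whose protein is set mainly by translation, fell by 0.16 on the log2 scale (SE 0.053, limma adjusted p = 0.0241).

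CHAC1 (chromosome 15, 40953471 to 40956512, GRCh38) measured 347, 375 and 312 in untreated libraries and 42.1, 58.9 and 44.8 in olaparib libraries, a change of -2.81 (SE 0.132, limma adjusted p = 9.7e-23). STC2, a secreted glycoprotein induced by stress, measured 746, 859 and 868 untreated and 247, 235.5 and 273.5 with olaparib. The pseudokinase TRIB3 went from 1195 ± 35.2 to 535 ± 25.6 and asparagine synthetase ASNS from 475 ± 25.9 to 216 ± 24.7 (mean ± SD, n = 3). In none of these genes did the groups overlap, and 33.8% of all genes tested had no overlap. For CHAC1 and STC2 the rule that named the largest falls required this. SLC7A11, the cystine importer, measured 381 ± 8.29 untreated and 129 ± 35.7 with olaparib, and its partner subunit SLC3A2 fell by 1.02 on the log2 scale (SE 0.068).

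The list also holds enzymes of serine and one-carbon metabolism. PSAT1 fell by 0.79, PHGDH by 0.54, SHMT2 by 0.48, PSPH by 0.22 and MTHFD2 by 0.19 on the log2 scale. The amino acid carriers SLC7A5 and SLC7A1 fell by 0.89 and 0.83, and the ATF4 partner CEBPG by 0.86. DDIT3, the stress factor CHOP, fell by 0.88 (SE 0.234) from a low level of 61.2. HERPUD1 and XBP1, which belong to the response to unfolded proteins, fell by 0.65 and 0.52. The summed level of the list was 30030 to 31040 in untreated and 20540 to 20810 in olaparib libraries. With 1 µM CDDP alone it was 22930 to 23540 and with 2.5 µM CDDP alone 28110 to 28950, so every treated condition was below the untreated one.

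The promoter of CHAC1 is printed because this gene fell most within the list. A script searched the 250 bases before each RefSeq gene start for TGATGNAA, the core of the element that ATF4 binds with C/EBP partners, on both strands. Of the 29 tested members 23 had a promoter in the RefSeq table (GRCh38.p14), and 3 of these (13%) held a match, against 1.4% of 10216 promoters of tested genes and 3.34% of all 27305 promoters. Capitals mark the match in CHAC1.
CHAC1, chr15:40953221-40953470, plus strand: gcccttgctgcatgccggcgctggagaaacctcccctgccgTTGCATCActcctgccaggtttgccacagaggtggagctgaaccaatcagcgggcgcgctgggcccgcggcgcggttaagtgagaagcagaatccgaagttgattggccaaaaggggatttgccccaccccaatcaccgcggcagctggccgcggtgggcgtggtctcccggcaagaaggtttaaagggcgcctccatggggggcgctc

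Many genes of the list of immediate early and growth factor feedback genes also fell. These genes are transcribed within minutes of growth factor signaling through ERK, serum response factor or TEAD, without new protein synthesis, and several encode feedback inhibitors of the same pathways. Of 39 listed genes 37 were tested, of which 18 fell, 1 rose (ID3, by 0.23 on the log2 scale) and 18 did not pass. The median was -0.34, and over all genes 9.11% fell and 12.4% rose. The summed level of the list was 28500 to 32870 in untreated and 20110 to 23120 in olaparib libraries. With 1 µM CDDP alone the sum was as low, at 19890 to 22120, and with 2.5 µM CDDP alone it was 30650 to 31960. CTGF (CCN2, chromosome 6, 131948176 to 131951372) measured 232, 221 and 195 in untreated libraries and 19.2, 16.4 and 27.1 with olaparib, a change of -3.34 (SE 0.187, limma adjusted p = 6.39e-20). CYR61 (CCN1), its matricellular relative, measured 863, 943 and 825 against 311, 252 and 277. Neither gene overlapped between the groups, which the rule that named the largest falls required.

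The transcription factor EGR1 measured 736, 828 and 814 untreated and 318.5, 280.5 and 380 with olaparib (-1.29, SE 0.127). AP-1 subunits fell less: JUN by 0.57, JUNB by 0.59, FOS by 0.75 and JUND by 0.28 on the log2 scale. ETV4, an ETS factor downstream of ERK, went from 43.3 ± 7.14 to 13.1 ± 3.75. Its relative ETV1 and the nuclear receptor NR4A1, both outside the list, went from 99.2 ± 14.6 to 31.1 ± 2.81 and from 84.3 ± 9.83 to 26.8 ± 6.11. Among the ERK phosphatases, DUSP4 fell by 0.80, DUSP1 by 0.75 and DUSP5 by 0.38, while DUSP6 at -0.82 (SE 0.379) did not pass. EGR3 measured 21.8, 25.6 and 13.1 untreated and 2.48, 0.519 and 2.46 with olaparib, which rests on few reads.

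Of 12 tested members of the epidermal growth factor receptor family 3 fell and none rose, against 9.11% lower and 12.4% higher over all genes. EGFR, which is amplified in this line, went from 2842 to 2194 (-0.37, SE 0.055), ERBB3 fell by 0.52 and ERRFI1, a feedback inhibitor of the receptor, measured 324, 348 and 305 against 158, 166 and 124. Of 21 tested TGF-beta and activin genes 6 fell and 2 rose, and the 2 higher genes were near the share over all genes. THBS1, a matrix protein that activates latent TGF-beta, went from 133 ± 4.43 to 54.9 ± 9.29, and TGFB2 and the activin subunit INHBA fell by 0.65 and 0.85. FSTL3, which binds activin, rose by 1.19 from a low mean of 6.65 and lost the call in 3 of 17 alternatives. CTGF is a member of that list too.

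The promoter of CTGF is shown as that of the gene with the largest fall. It held GGAATG, the core letters of the TEAD site, 3 times in its 250 bases. The motif was present on either strand in 9.6% of promoters of tested genes and 12.1% of all promoters, and in 1 of 26 promoters of the immediate early list. Capitals mark the matches.
CTGF, chr6:131951373-131951622, minus strand: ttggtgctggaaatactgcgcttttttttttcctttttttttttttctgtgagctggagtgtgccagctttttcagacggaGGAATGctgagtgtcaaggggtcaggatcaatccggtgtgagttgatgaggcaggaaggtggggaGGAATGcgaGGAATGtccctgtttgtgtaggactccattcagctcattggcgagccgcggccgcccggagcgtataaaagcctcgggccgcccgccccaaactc

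Mitotic genes rose. The G2/M list holds the cyclins, kinases, motors and checkpoint proteins that are transcribed late in the cycle under MYB-MuvB and FOXM1. All 40 genes were tested, 33 rose, none fell and 7 did not pass, with a median of 0.47, and no member reached 2-fold. By comparison, 12.4% of all genes rose and 9.11% fell. The gene with the largest rise, the microtubule depolymerase KIF2C, measured 810, 751 and 716 untreated and 1369, 1404 and 1318 with olaparib (0.85, SE 0.065, limma adjusted p = 4.77e-15). Cyclin B1 (CCNB1) measured 1064, 1101 and 1127 against 1691, 1710 and 1719, and its kinase CDK1 rose by 0.68. CCNA2, CKS2 and CCNB2 rose by 0.78, 0.78 and 0.71, the kinases AURKB, AURKA and PLK1 by 0.68, 0.54 and 0.54, and TOP2A from 7550 to 10530. The untreated and olaparib libraries did not overlap for the summed list, at 45070 to 46380 and 60460 to 64920. In libraries with 2.5 µM CDDP alone the sum was 40390 to 41060 and with 1 µM CDDP alone 45330 to 47120.

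Promoters of G2/M genes carry CCAAT boxes and the cell cycle homology element TTTGAA. Of 33 promoters of the list in the RefSeq table, 81.8% held CCAAT and 57.6% held TTTGAA on either strand, against 34.6% and 8.84% of promoters of tested genes and 32.7% and 13.9% of all promoters. CDC20, the activator of the anaphase-promoting complex, held 2 of each and CCNB1 2 CCAAT boxes and no TTTGAA. CDC20 measured 711, 694 and 716 untreated and 1022, 1151 and 963 with olaparib. Both are printed as members that rose together, with matches in capitals.
CDC20, chr1:43358731-43358980, plus strand: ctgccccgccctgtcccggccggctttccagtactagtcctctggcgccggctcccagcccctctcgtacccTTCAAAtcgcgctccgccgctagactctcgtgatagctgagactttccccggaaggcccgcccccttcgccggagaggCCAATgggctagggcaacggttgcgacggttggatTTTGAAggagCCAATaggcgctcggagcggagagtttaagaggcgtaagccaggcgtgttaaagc
CCNB1, chr5:69166900-69167149, plus strand: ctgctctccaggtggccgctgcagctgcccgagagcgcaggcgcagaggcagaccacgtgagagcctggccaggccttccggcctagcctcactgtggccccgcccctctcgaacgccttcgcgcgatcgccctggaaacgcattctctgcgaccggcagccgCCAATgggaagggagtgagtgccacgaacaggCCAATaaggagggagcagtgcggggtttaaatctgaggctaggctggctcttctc

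More replication genes rose than fell. Of 46 E2F targets and replication genes 17 rose, 4 fell and 25 did not pass, with a median of 0.12. Over all genes 12.4% rose and 9.11% fell, so the 4 lower genes were near that share. The summed list was 22680 to 22870 in untreated and 26590 to 27000 in olaparib libraries. CDDP alone gave higher sums, 31390 to 31890 with 1 µM and 38980 to 39690 with 2.5 µM. RRM2, the regulated subunit of ribonucleotide reductase, had the largest rise and measured 1862, 1885 and 2029 untreated and 3658, 3881 and 3426 with olaparib (0.92, SE 0.052, limma adjusted p = 6.39e-20). Thymidine kinase TK1 rose by 0.64, GINS4 by 0.72 and the primase partner POLA2 by 0.71. The helicase subunits MCM5 and MCM6 fell by 0.36 and 0.32 on the log2 scale, and DTL, the substrate receptor that degrades CDT1, fell by 0.41 (SE 0.089), whereas the licensing factor CDT1 itself rose by 0.23. Outside the lists, the tubulin genes TUBB2A and TUBA1C rose from 116 ± 18.5 to 256 ± 18.8 and from 4527 ± 118 to 7788 ± 509, and the microtubule destabilizer STMN1 from 6839 ± 151 to 10040 ± 835. RRM2 and TUBB2A were higher in each of the 15 treated parental libraries than in the 3 untreated ones, whereas CCNB1 was higher in the 3 olaparib libraries than in all other parental libraries.

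**Figure D2:**
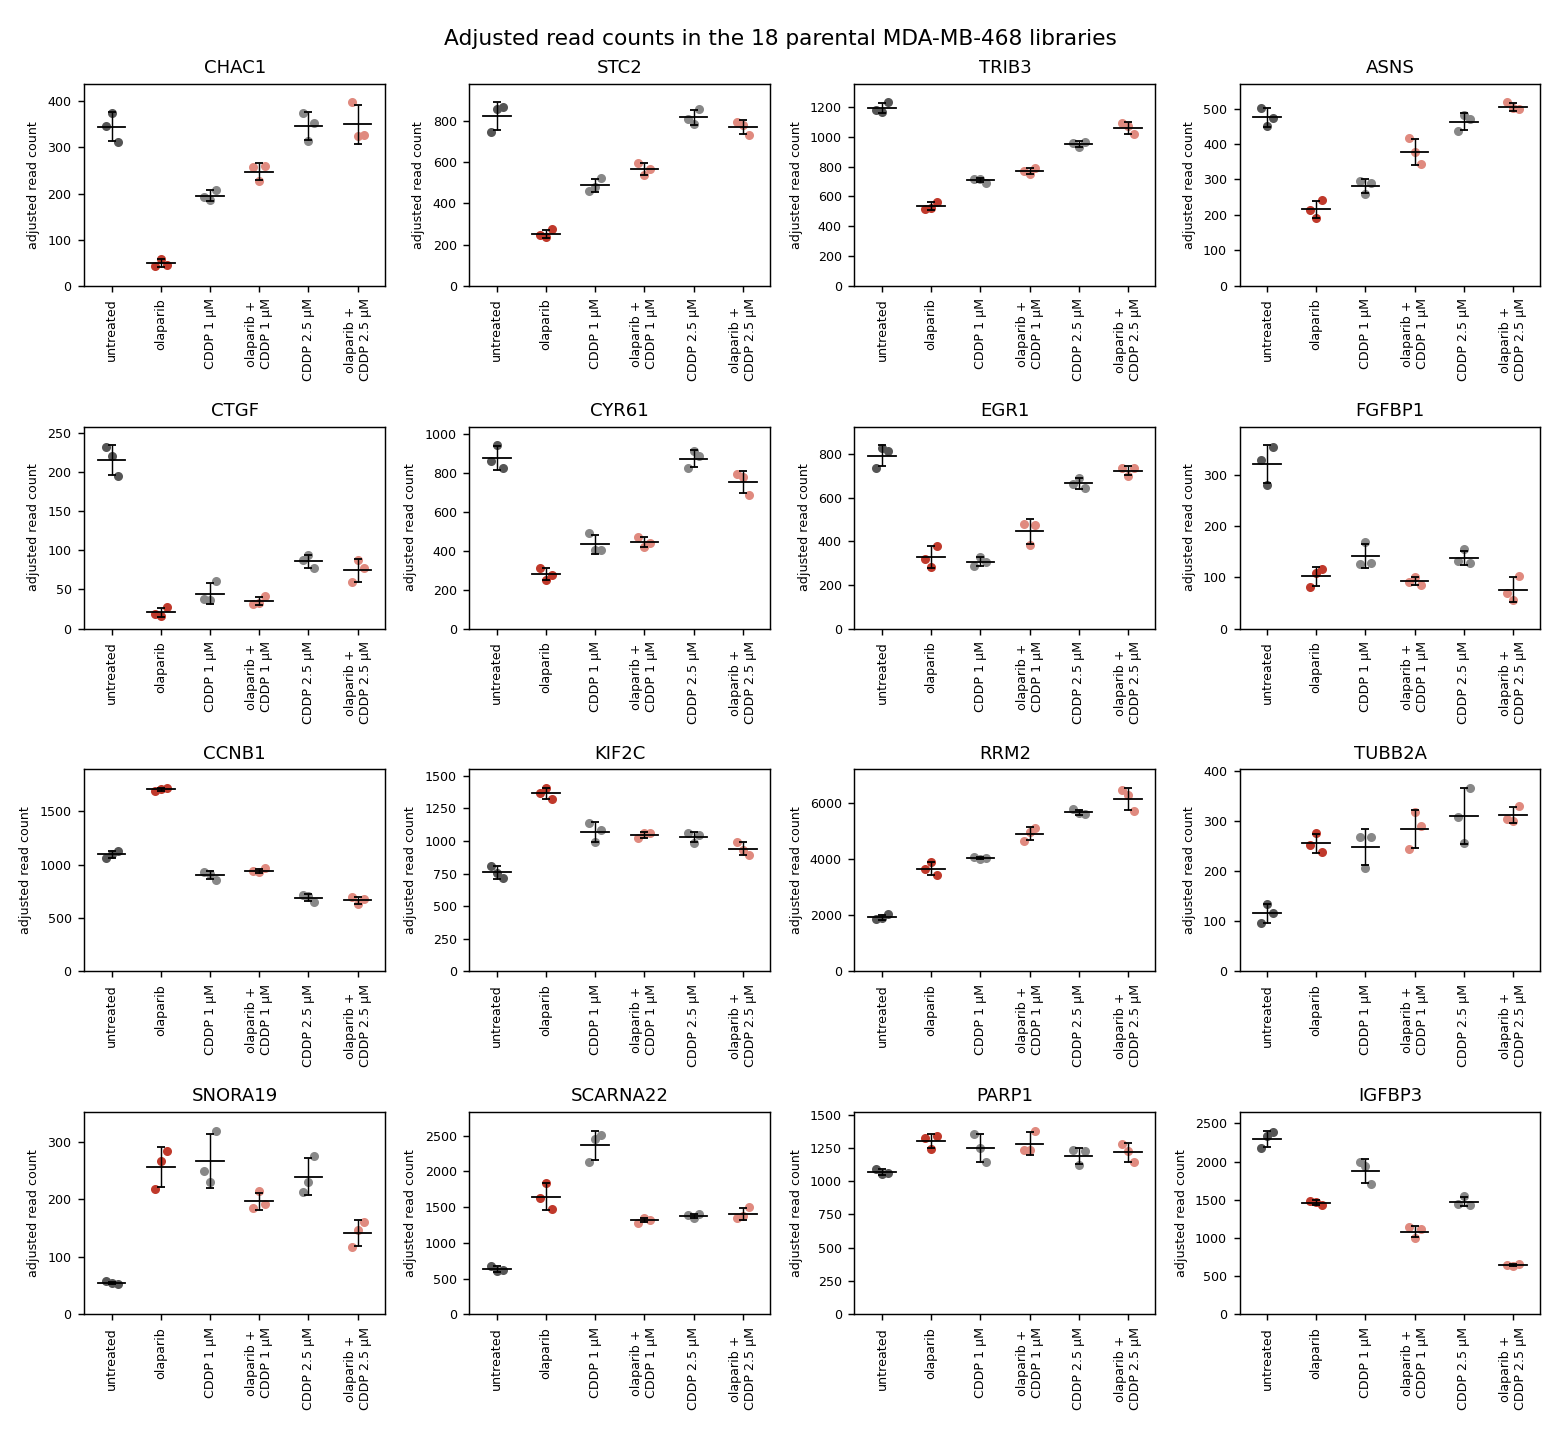
Adjusted read counts (y axis, from 0) of 16 genes in the 18 parental MDA-MB-468 libraries by condition; points are libraries, horizontal lines the mean and error bars the SD (n = 3). CHAC1, STC2 and CYR61 return to near the untreated level with 2.5 µM CDDP, CCNB1 is highest with olaparib alone, and RRM2, TUBB2A, SNORA19 and SCARNA22 are higher in every treated condition than in untreated cells.

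The targets of olaparib and their partners changed little. PARP1 (chromosome 1, 226360691 to 226408093) measured 1089, 1051 and 1063 untreated and 1322, 1244 and 1338 with olaparib (0.28, SE 0.068, limma adjusted p = 0.00137). PARP2 went from 549 ± 20.7 to 662 ± 12.8 (0.27, SE 0.072), and PARG from 204 ± 16.9 to 154 ± 11.9 (-0.40, SE 0.137). PARG did not pass when any of 4 libraries was left out, for instance at -0.34 without olaparib replicate 1. TIPARP, a mono-ADP-ribosyltransferase induced by the aryl hydrocarbon receptor, measured 88.1, 96.5 and 89.7 against 46.0, 44.5 and 61.9, and tankyrase TNKS2 fell by 0.30. Of 17 tested members of the family 2 rose, 3 fell and 12 did not pass, against 12.4% higher and 9.11% lower over all genes.

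Some repair genes rose and fewer fell. Of 38 homologous recombination and Fanconi anemia genes 12 rose, 5 fell and 21 did not pass, with a median of 0.14. None was a DEG. Over all genes 12.4% rose and 9.11% fell, so the 5 lower genes were near that share. The summed list was 6470 to 6611 in untreated and 7192 to 7418 in olaparib libraries. It was higher still with CDDP alone, at 8100 to 8452 with 1 µM and 8719 to 9059 with 2.5 µM. FANCG, a subunit of the Fanconi core complex, measured 187, 225 and 198 untreated and 355, 387 and 405 with olaparib (0.91, SE 0.11). FANCI and FANCD2, which are ubiquitinated by that complex, rose by 0.74 and 0.37. PALB2, which links BRCA1 to BRCA2, fell from 151 ± 17.4 to 81.0 ± 8.36 (-0.89, SE 0.177), and RBBP8, which starts resection, fell by 0.41. BRCA1 at 0.16 (SE 0.083, limma adjusted p = 0.164) and BRCA2 at 0.14 (SE 0.079, adjusted p = 0.22) did not pass. FANCG was higher in all 15 treated parental libraries than in the untreated ones.

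In base excision and single-strand break repair, 9 of 27 genes rose and 1 fell, against 12.4% and 9.11% over all genes. The alkyladenine glycosylase MPG measured 206.5, 200 and 148 against 265, 296 and 329, POLE2 rose by 0.66 and the sliding clamp PCNA by 0.19, while the flap nuclease FEN1 fell by 0.20. Of 22 checkpoint genes 5 rose and 1 fell, against the same shares. CHEK2 went from 104 ± 28.4 to 148 ± 12.8 (0.53, SE 0.166) but overlapped between the groups, TIMELESS rose by 0.46, and RNF168, the ubiquitin ligase at breaks, fell by 0.53. According to the study, this line expresses mutant p53. Among 28 p53 targets 3 rose and 3 fell, with a median of -0.01, and these counts are near the 12.4% and 9.11% over all genes. POLH, the translesion polymerase, rose by 0.37 (SE 0.122), DDB2 by 0.54 and TP53I3 by 0.50, while SESN2, which is also in the ATF4 list, fell by 0.97 and the BH3-only protein PMAIP1 by 0.61. GDF15 was barely detected, with 3.89, 5.67 and 7.54 untreated and 0, 1.58 and 0 with olaparib.

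Small non-coding RNAs made up 40 of the 85 higher DEGs. These RNAs were grouped by the start of their symbols (SNORA, SNORD, SCARNA and similar) after their values were seen. Most box H/ACA and box C/D RNAs are released from introns of a host gene, guide modification of ribosomal or spliceosomal RNA and carry no poly(A) tail. Of 116 tested, 50 rose and 1 fell, against 12.4% and 9.11% of all genes, with a median of 0.76. SNORA19 (chromosome 10, 119060011 to 119060138, within an intron of EIF3A) measured 57.4, 54.1 and 52.4 untreated and 217.5, 268 and 284 with olaparib (2.20, SE 0.146, limma adjusted p = 2.64e-17). SNORA79 measured 134, 166 and 140 against 612, 617 and 709, and SCARNA22, which lies over an exon of NSD2, measured 676, 606 and 616.5 against 1631, 1843 and 1468. The groups did not overlap in any of these, which the rule that named the largest rises required.

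The host genes were looked up for these RNAs. Of the 40 higher RNAs 35 were placed by symbol in GENCODE v44 and 32 lay within a longer gene on the same strand, 19 in an intron and 13 over an exon. The 30 different hosts that were tested changed by -0.54 to 0.28, with a median of -0.01, and 3 rose and 3 fell, against 12.4% higher and 9.11% lower over all genes. EIF3A, the host of SNORA19, fell by 0.29. The summed level of all small non-coding RNAs was 11210 to 11730 in untreated libraries, 19390 to 23130 with olaparib, 24550 to 30470 with 1 µM CDDP, 17330 to 18390 with 2.5 µM CDDP, and 15230 to 19870 in the combinations. It was thus lowest in the untreated libraries. A difference in RNA or library preparation was not tested. Without these RNAs the DEGs were 45 higher and 140 lower.

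**Figure D3:**
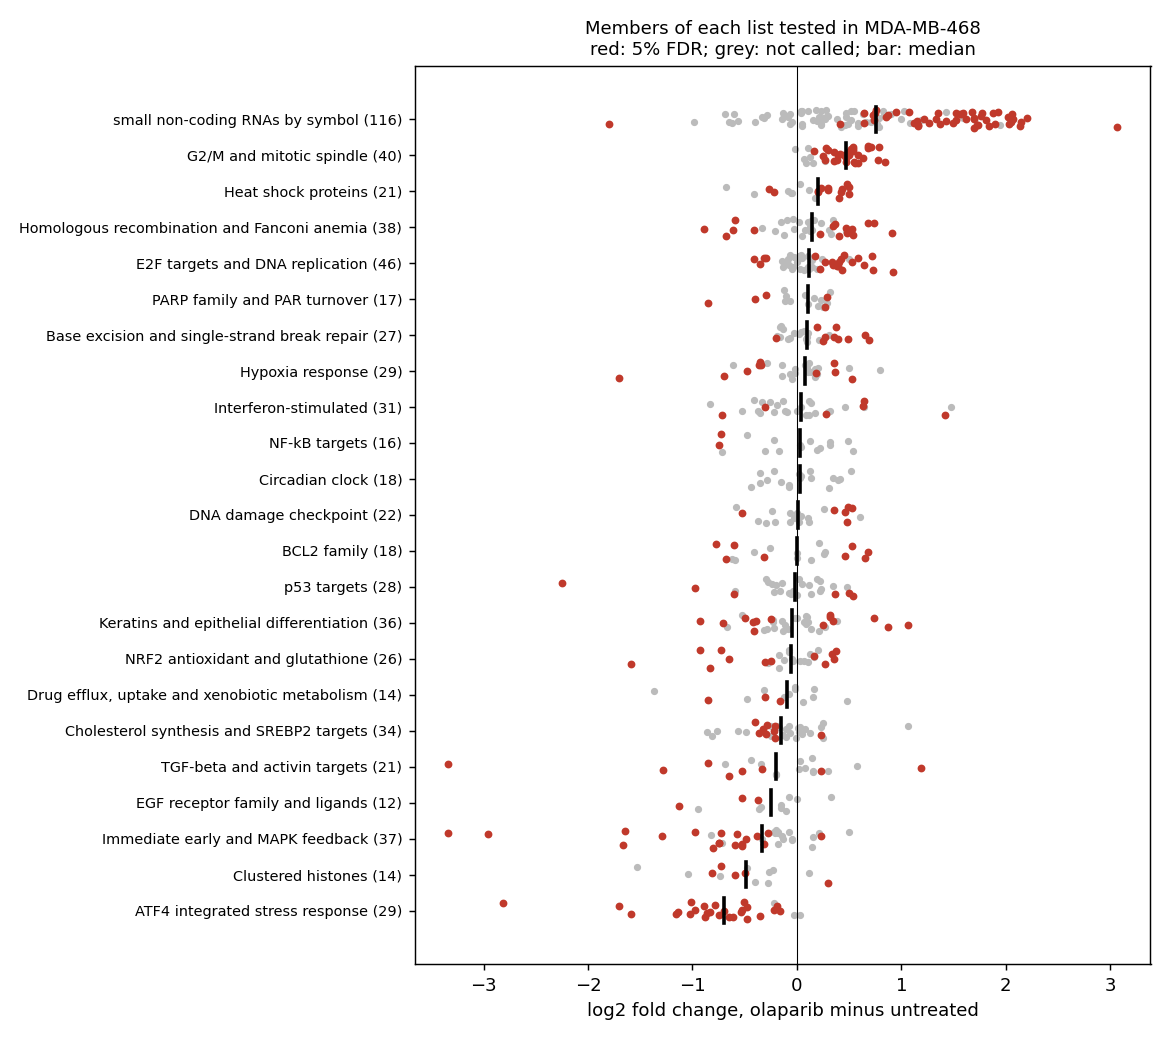
Log2 fold change of olaparib against untreated cells (x axis) for the tested members of each list (y axis, number of members in brackets). Red points passed 5% FDR, grey points did not, and black bars are medians, from 0.76 for small non-coding RNAs and 0.47 for G2/M genes to -0.70 for ATF4 targets.

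Other large falls were in genes outside the lists. IL22RA2, a decoy receptor for interleukin 22, measured 107, 109 and 103 untreated and 18.1, 20.9 and 29.6 with olaparib. FGFBP1, which releases fibroblast growth factors from the matrix, went from 321 ± 37.6 to 102 ± 18.4, and OLR1, a scavenger receptor, from 53.1 ± 17.5 to 16.4 ± 2.69. The non-coding transcripts LINC01447 and LOC101929705 fell by 2.51 (SE 0.263) and 2.12 (SE 0.254). DHRS2, a mitochondrial reductase, measured 318, 325 and 327.5 untreated and 115, 84.3 and 126 with olaparib. CCDC71L went from 759 ± 33.5 to 251.5 ± 19.4, and the kinesin KIF5C from 63.0 ± 5.32 to 20.05 ± 5. IL22RA2, LINC01447, LOC101929705 and DHRS2 were lower in all 15 treated parental libraries than in the untreated ones.

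Among protein-coding genes with large rises, SEMA4F, a membrane semaphorin, went from 22.6 ± 7.11 to 62.3 ± 9.38 and HSH2D, an SH2 adaptor, from 20.3 ± 7.08 to 51.5 ± 18. The keratins KRT15 and KRT5 rose, from 158 ± 14.4 to 330 ± 10.4 and from 259 ± 12.4 to 477 ± 57.4, whereas KRT17 fell by 0.41, KRT23 by 0.71 and the tight junction protein CLDN1 by 0.93. In all, 7 of 36 keratin and epithelial genes rose and 7 fell, and of the 13 basal-like markers 4 rose and 3 fell. Among all genes 12.4% were higher and 9.11% lower.

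Other pathways are given more briefly, and their counts stand against 12.4% higher and 9.11% lower over all genes. Of 21 heat shock genes 11 rose, including HSPA8 (0.50, SE 0.067), HSPA1A (0.50) and HSP90AA1 (0.42), and 2 fell. Cholesterol genes were lower in 8 and higher in 1 of 34 tested, with EBP at 0.23. The NRF2 list gave 5 higher and 7 lower of 26, with HMOX1 at -0.73, AKR1C2 at -0.93 and GCLM at 0.37. The hypoxia list gave 4 higher and 6 lower of 29, where STC2, VEGFA and DDIT4 are shared with the ATF4 list. For interferon-stimulated genes the count was 4 higher and 2 lower of 31, near those shares, with OAS3 at 0.64 and ISG15 at 0.63. IFIT1 was near the lower limit, with 5.48, 3.99 and 8.36 untreated and 27.8, 15.1 and 11.5 with olaparib. Only RELB (-0.74) and IER3 (-0.73) passed among 16 NF-kB targets. Of 14 clustered histone genes 4 fell, such as HIST1H1C by 0.73, and HIST1H4C rose by 0.30. The histone median was -0.49, with 12 changes negative and 2 positive, most of which did not pass. The BCL2 family divided into 4 higher, with BAD at 0.68, and 4 lower, with BMF at -0.78 and MCL1 at -0.32. In the transport and xenobiotic list 3 of 14 fell, and the 18 circadian clock genes had a median of 0.03.

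The effect of olaparib was then measured in cells that also received CDDP, where treated and reference libraries are distinct from those above. When olaparib was added to 1 µM CDDP, 241 genes rose (1.85%) and 264 fell (2.03%), and when it was added to 2.5 µM CDDP, 602 rose (4.63%) and 949 fell (7.29%). These counts moved with single libraries: without CDDP replicate 1 the first pair was 79 and 115, and without CDDP replicate 2 or replicate 1 of the combination 143 and 93 rose. With 2.5 µM CDDP 395 rose without CDDP replicate 3, and 375 and 363 without replicates 2 and 3 of the combination. The 85 higher DEGs had a median of 1.45 with olaparib alone, -0.25 with 1 µM CDDP and -0.09 with 2.5 µM CDDP. The 141 lower DEGs had medians of -1.36, -0.09 and -0.09. Of the higher DEGs 2 rose and 13 fell with 1 µM CDDP, and 1 rose and 3 fell with 2.5 µM. Of the lower DEGs 5 fell and 5 rose with 1 µM, and 10 fell and 1 rose with 2.5 µM. The G2/M list gave 5 higher and none lower with 1 µM, and 6 higher and 3 lower with 2.5 µM. For the ATF4 list the counts were 5 higher and none lower, and 3 higher and 3 lower.

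The difference between the olaparib effects with and without 2.5 µM CDDP was tested as an interaction. It was positive for 1059 genes (8.14%) and negative for 1564 (12%). Among the DEGs of olaparib alone, 50 of 85 and 76 of 141 differed, and these counts use the untreated and olaparib libraries that defined the DEGs. CHAC1 gave 347 ± 30 with 2.5 µM CDDP and 350 ± 42 with olaparib added, so that the effect of -2.81 alone was 0.01 under CDDP (difference 2.82, SE 0.186). TUBA1C, HINT1 and STMN1 rose with olaparib alone and fell when it was added to 2.5 µM CDDP.

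Few genes responded to olaparib in the same direction in all 3 settings. There were 10 such genes higher and 30 lower. IGFBP3, which binds insulin-like growth factors, measured 2181, 2336 and 2383 untreated and 1490, 1473 and 1428 with olaparib. It went from 1881 ± 157 to 1084 ± 77.9 with 1 µM CDDP and from 1475 ± 59.3 to 644 ± 13.3 with 2.5 µM CDDP, a fall of 0.65, 0.79 and 1.19 on the log2 scale. The secreted proteins MSMB, CRISP3, CP and IGFBP5, the vasoconstrictor EDN1, the membrane protein TMEM45A and FGFBP1 also fell in each setting. GLYATL2, an acyltransferase, rose by 0.84, 0.92 and 1.08. ATF5, GTSE1, NUSAP1, TUBG1, MPC1, PGM2L1 and SVIP rose by smaller amounts, of which GTSE1, NUSAP1 and TUBG1 act on microtubules or in mitosis.

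**Figure D4:**
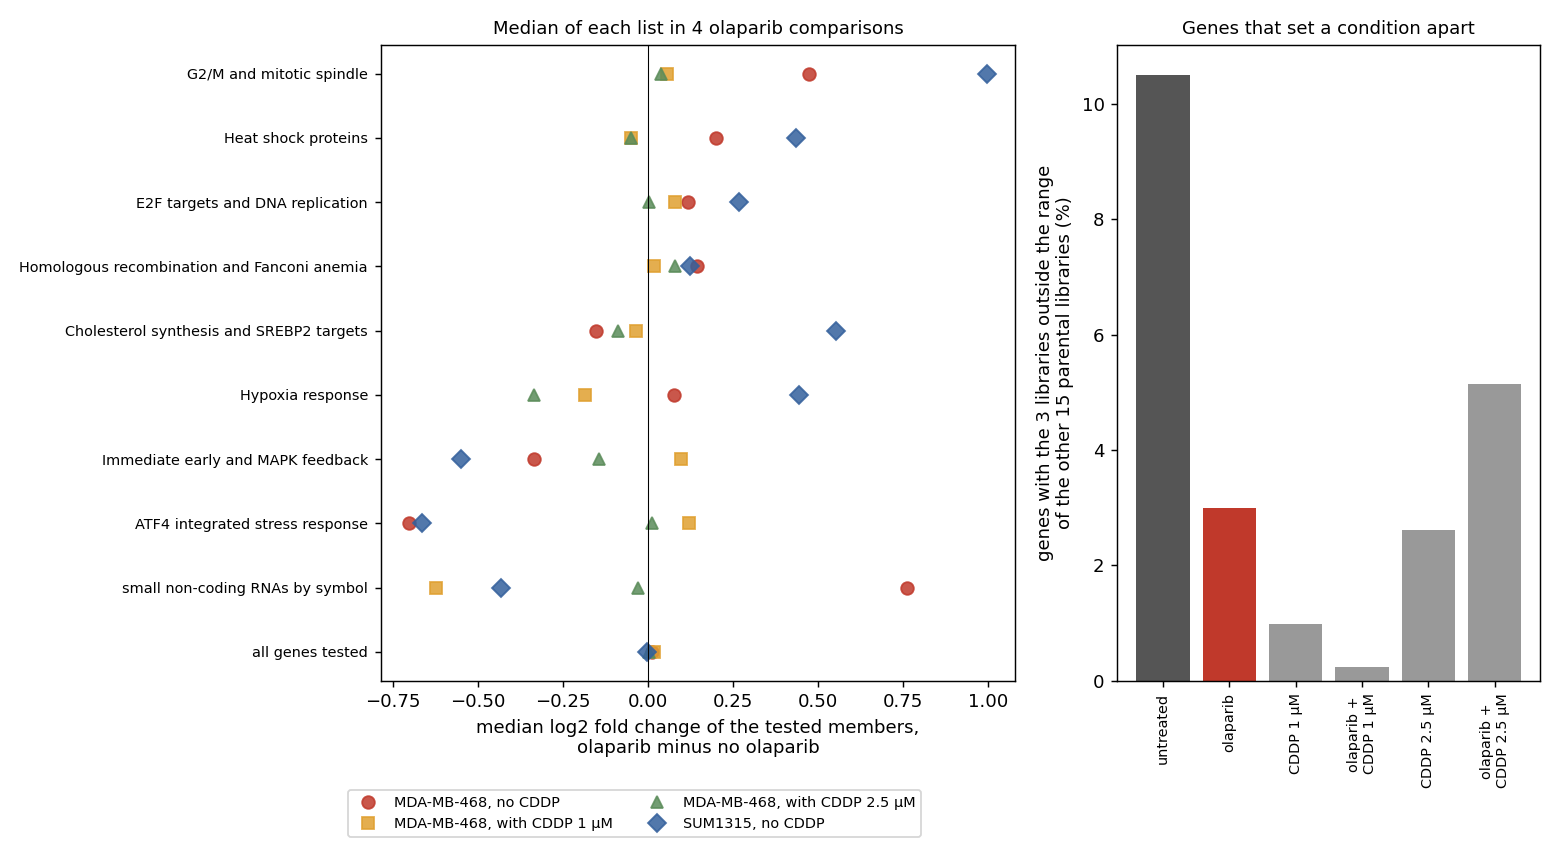
Left, median log2 fold change of the tested members of 9 lists and of all genes (y axis) in 4 olaparib comparisons that share no libraries. Right, percent of 13012 genes for which the 3 libraries of a condition lay outside the range of the other 15 parental MDA-MB-468 libraries, from 10.5% in untreated cells to 0.231% with olaparib and 1 µM CDDP.

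In SUM1315, olaparib at 8 µM raised 2488 (18.9%) and lowered 2244 (17.1%) of 13133 genes. The dose differs from that in MDA-MB-468, so a difference between the lines cannot be told apart from one between doses. The effect was higher in MDA-MB-468 for 1430 (9.89%) and lower for 1445 (9.99%) of 14460 genes tested over both lines. The ATF4 list fell in SUM1315 as well, with 20 of 29 lower, 1 higher and a median of -0.67, and STC2 (-1.90) and TRIB3 (-1.57) were among them. SLC7A11 rose by 0.46 in SUM1315 and fell by 1.59 in MDA-MB-468. The G2/M list was higher for 38 of 40 in SUM1315, with a median of 1.00, and 25 of its genes had a smaller or opposite effect in MDA-MB-468. CTGF and CYR61 fell by 2.08 and 1.35 in SUM1315. Cholesterol genes rose in SUM1315 in 18 of 33 and fell in 3, and 13 of 34 were lower in MDA-MB-468 by the test of the difference. Small non-coding RNAs were higher for 4 and lower for 11 of 111 in SUM1315.

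**Figure D5:**
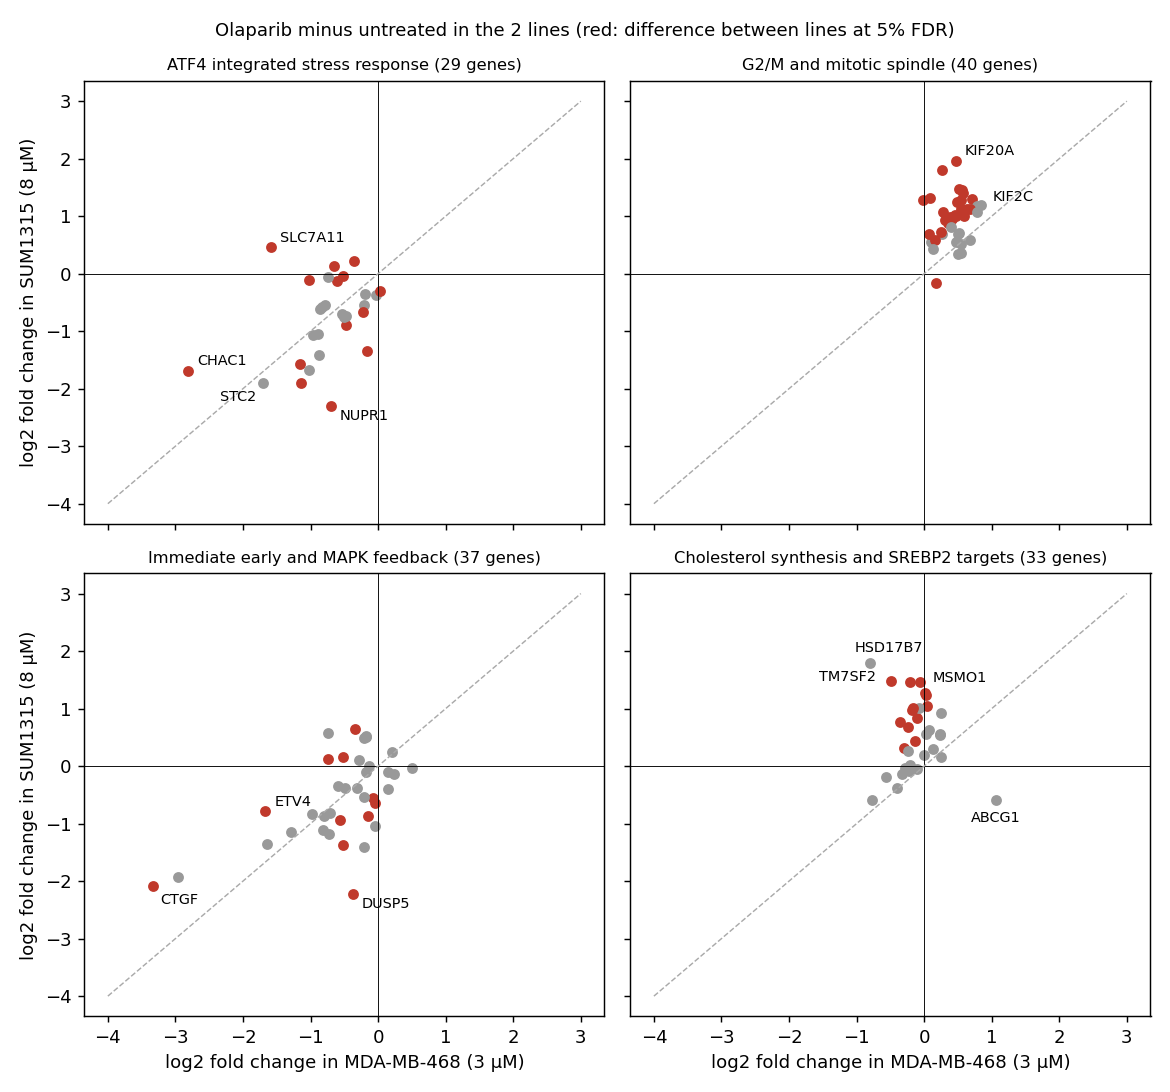
Log2 fold change of olaparib against untreated cells in MDA-MB-468 at 3 µM (x axis) and SUM1315 at 8 µM (y axis) for the tested members of 4 lists; the dashed line marks equal values. Red points differ between the lines at 5% FDR, among them SLC7A11 (-1.59 and 0.46) and MSMO1 (-0.07 and 1.46).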

How the data were processed

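RNA-seq was done on 54 libraries with an oligo(dT)-primed 3′ end kit that reads 1 fragment near the end of each polyadenylated transcript. According to the labels and the study's methods, reads were called with CASAVA 1.8.2, checked with FastQC, aligned with STAR to hg38 and counted per gene with HTSeq. The deposited values are a signal in the form of adjusted read counts, which the authors made with edgeR by bringing libraries to a common size, and they need not be whole. The adjustment could be inverted: 100% of 1483380 values came from whole reads within a relative tolerance of 1e-06. Recovered depth was 2070301 to 9268162 reads a library. The number of reads limits the precision of low genes, and reads are not independent molecules. The deposited columns were matched to samples by name (54 matched, 0 unmatched), and 2 row names were repeated. Names of 27 genes had been turned into dates. Tables of the authors' own comparisons, which hold fold changes and p-values, were not used.

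Values were tested on log2(value + 1) with limma 3.58.1 in R 4.3.3, with an intensity trend, in genes of at least 10 in at least 3 libraries. All 27 MDA-MB-468 libraries shared 1 estimate of spread, and the lines were compared over all 54. P-values were adjusted by Benjamini-Hochberg over all genes of the fit. Genes at 5% FDR are said to rise or fall, and DEGs also changed at least 2-fold. Fold changes on this scale understate changes of low genes. On simulated counts for this comparison (12701 genes) 37.3% of 1.5-fold, 94% of 2-fold and 100% of 4-fold changes were called, with 0.008% of unchanged genes. The simulation gave all genes the same dispersion, changed only genes with a mean of at least 30 and held no other difference between groups. Its rates therefore do not carry over to low genes or to untreated libraries that stand apart. Alternatives were edgeR 4.0.16 and DESeq2 1.42.0 on recovered reads, other pseudocounts, filters and fold limits, rescaling, a replicate block, and leaving out each library.

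Genes were named by rule: the 15 largest rises and falls among genes at 5% FDR with no overlap between groups and a mean of at least 30, the leading members of each list, the 8 genes each way that changed alike in 3 settings, the 6 smallest p-values of each interaction, and PARP1, PARP2, PARG, BRCA1, BRCA2 and POLH. Some genes that the rule or the lists hold are not reported here. Further list members were named as examples after their values were seen. The members of the comparison and the gene lists were chosen with earlier results of these data known. Doses are in µM as in the study's methods, since the labels print another unit. Mitochondrially encoded genes were not analysed here. Promoters came from RefSeq (GRCh38.p14), 250 bases before the gene start, and coordinates were found for 98 of 100 named genes.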

Additional observations from a re-analysis of the deposited data

Results flagged for a closer look

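The effect of olaparib differed between cells without CDDP and with 2.5 µM CDDP by limma's interaction test. The differences on the log2 scale, with CDDP minus without, were 2.82 for CHAC1, -2.96 for SNORA19, 1.71 for CCDC71L, -0.97 for TUBA1C, -1.12 for HINT1 and -0.97 for STMN1. Each value uses the untreated libraries, which stood apart from the treated ones. For the effect in MDA-MB-468 minus that in SUM1315, the differences were -1.72 for MT2A, a metallothionein, 1.91 for RCAN1, an inhibitor of calcineurin, and -1.84 for PEG10. They were -1.66 for INSIG1 and -1.52 for MSMO1, both of sterol metabolism, and -1.98 for CCDC71L. The doses were 3 and 8 µM, so line and dose cannot be told apart.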

How the results depend on the processing

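The counts of genes at 5% FDR with olaparib alone moved by less than 1.5 times under every alternative run. The higher DEGs were 56 with a pseudocount of 5, 51 with only the 6 libraries compared, 293 and 12 with fold limits of 1.5 and 4, and 45 without small non-coding RNAs (chosen after seeing the data). The lower DEGs were 413 and 21 with the same fold limits. With 1 µM CDDP the count was 156 higher without a filter and 420 lower in edgeR, and the small non-coding RNAs that rose were 33 with a value of at least 30. The cause was not tested.

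With each library left out in turn, genes at 5% FDR ranged over 1277 to 1429 higher and 898 to 1040 lower, and DEGs over 76 to 92 and 108 to 149. With 1 µM CDDP the ranges were 79 to 230 and 115 to 229, with 2.5 µM CDDP 363 to 508 and 659 to 923, and for the interaction 858 to 995 and 1320 to 1533. In SUM1315 they were 1954 to 2419 and 1713 to 2083, and between the lines 1101 to 1517 and 1070 to 1649. The counts with 1 µM CDDP were 79 higher and 115 lower without CDDP replicate 1, 143 higher without CDDP replicate 2 and 93 higher without replicate 1 of the combination. With 2.5 µM CDDP they were 395 higher without CDDP replicate 3, and 375 and 363 without replicates 2 and 3 of the combination. Among lists, 24 to 26 ATF4 targets fell, 14 to 17 immediate early genes fell, and 29 to 33 G2/M genes, 15 to 17 replication genes, 9 to 12 recombination genes, 9 to 11 heat shock genes and 37 to 47 small non-coding RNAs rose.

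Of 100 named genes 19 lost the call at least once, in 62 of 1696 values. Those lost when 1 library was left out were CHEK2, POLH, PARG, FEN1, DDB2, ESR1, CD14, IFIT1, IFIT5, RELB, BMF, BAG3, INSIG1, FSTL3, ATF5, PGM2L1, PDGFRA, HIST1H2BC and SNORA23. MT2A, which was not called, ranged from -0.015, a change of sign without olaparib replicate 2, to 0.057 when 1 library was left out. Same-numbered libraries did not deviate together (r = 0.013, -0.088 and -0.076), so the numbers were not taken as pairs. A replicate block gave 1583 genes higher and 1167 lower and 84 and 139 DEGs, and no count changed by over 1.5 times under it. Depth limits genes of few reads: 6 higher and 9 lower DEGs had a group with at most 3 reads.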
